A study of Mus musculus with 8 samples.

Results

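The TNF and TNF receptor superfamily was followed in sorted mouse CD4+CD8+ double-positive thymocytes that carried or lacked Hdac3, the histone deacetylase that NCoR and SMRT corepressors recruit. Its genes were taken by symbol, as every Tnfsf or Tnfrsf symbol that goes on with a digit plus Tnf, Lta, Ltb, Ltbr, Cd40, Cd40lg, Cd27, Cd70, Fas and Fasl. This gave 41 of the 23278 genes in each deposited table, of which 17 encode ligands and 24 encode receptors. A gene was judged only where it had at least 1 FPKM (fragments scaled to transcript length and to the depth of the library) in a group and the authors had tested it. In at least 1 table, 26 members reached that level and 24 of them were tested there. The other 15 stayed below it in all tables, the highest being Tnfrsf23 at 0.978 FPKM.

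RNA was sequenced from 8 samples in 4 groups of 2, all from C57BL/6 mice and all sorted as GFP+ CD4+CD8+ cells. Hdac3KO DP1 cells came from animals with floxed Hdac3 alleles and LCK-Cre and had low CD5 and low TCRβ on their surface. WT DP1 cells, their reference, were the same population from Hdac3+/+ animals. Hdac3KO DP2 and WT DP2 cells came from the same genotypes and were CD5-high with intermediate TCRβ, a surface phenotype that follows first signals through the T cell receptor (TCR). LCK-Cre is driven by the promoter of a kinase gene of the T lineage, so deletion starts in thymocytes before the stages sampled here. Libraries were made from RNA pools, and the labels give neither ages nor the source of GFP, nor say whether the Hdac3+/+ animals carried the Cre.

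TNF superfamily ligands are mostly trimeric proteins of the cell surface that can be shed, and their receptors are type I membrane proteins with cysteine-rich repeats. Some receptors, such as Fas and TNFR1, carry a death domain and can recruit caspase-8, while others, such as CD27, OX40 and 4-1BB, bind TRAF adaptors and activate NF-kB. In the thymus, RANK ligand, CD40 ligand and lymphotoxin from developing T cells act on medullary epithelial cells, and TCR signals are a known inducer of several of these ligands in T cells.

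In each table the deposited value is 1 FPKM per gene and group, so no spread between samples could be computed and the depth per library is unknown. A call below is the authors' deposited q-value of 0.05 or less, and ± gives a standard error (SE), the size of the log2 change over the normal quantile of the deposited p-value. Hdac3 itself was lower in the knockout in the authors' deposited tables, at 11.7 FPKM in Hdac3KO DP1 against 38.1 FPKM in WT DP1, and at 15.4 FPKM in Hdac3KO DP2 against 29.7 FPKM in WT DP2. All 10 markers of double-positive cells, among them Cd4, Cd8a and Rag1, were detected at 10.99 FPKM or more in both DP2 groups, and the regulatory T cell factor gene Foxp3 lay between 0.191 and 0.693 FPKM in all groups of the genotype tables. Xist stood at 208 and 139 FPKM in the Hdac3KO DP1 and DP2 groups, against 0.0945 and 0.243 FPKM in the WT groups in the authors' deposited tables, so sex and genotype cannot be told apart in either genotype comparison. The median gene with at least 10 FPKM in both groups lay at -0.11 on the log2 scale between genotypes in DP1, at 0.12 between genotypes in DP2, at -0.01 between stages in Hdac3KO and at -0.33 between stages in WT.

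Double-positive thymocytes carried few ligand transcripts and many receptor transcripts of this family. The 17 ligands summed to 61.0 FPKM in Hdac3KO DP1 and 73.2 FPKM in WT DP1, and to 114 FPKM in Hdac3KO DP2 and 100.3 FPKM in WT DP2, in the authors' deposited genotype tables. Ltb, the β chain of the membrane-bound lymphotoxin heterotrimer, made up 60.4%, 76%, 62.3% and 50.2% of these sums in that order. The 24 receptors summed to 485 and 478 FPKM in DP1 and to 734 and 676 FPKM in DP2, with the Hdac3KO value first in each pair. Cd27, the receptor for CD70, supplied 57.3% and 63% of the receptor sum in DP1 and 63.3% and 70.9% in DP2 in the same order. In bulk RNA, fewer cells with a transcript and less transcript per cell cannot be told apart, which holds for every value here.

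**Figure D1:**
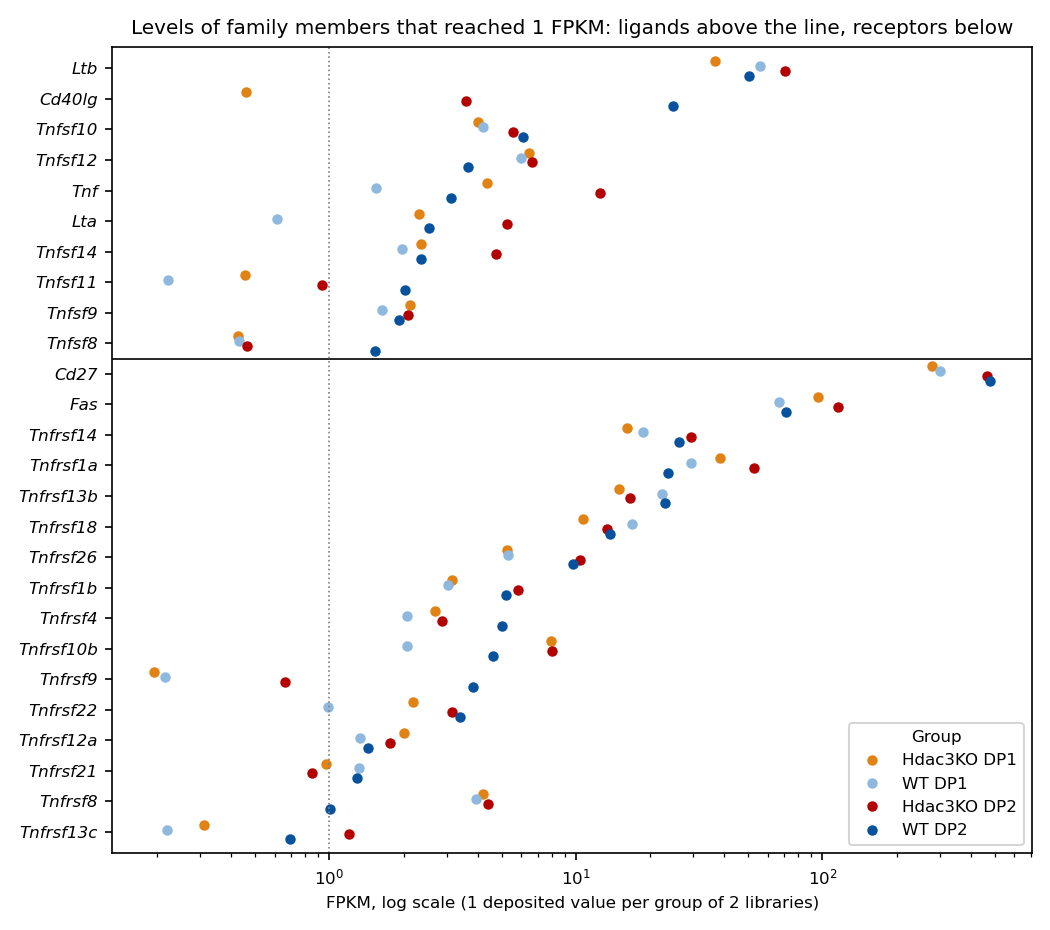
Deposited FPKM on a log axis for the 26 members that reached 1 FPKM, ligands above the line and receptors below it, sorted by the WT DP2 value, with 1 point per group. The dotted line marks 1 FPKM, DP1 and DP2 values come from separately scaled tables, and Cd40lg in WT DP1, listed at 0, has no point. Cd27 lies between 278 and 480 FPKM in all groups, while Cd40lg, Tnfsf11 and Tnfrsf9 reach their highest value in WT DP2.

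Knockout DP1 cells had more Tnf, Lta and Tnfrsf10b transcripts than WT DP1 cells and no member was called lower. Of the 20 members tested in the authors' deposited DP1 table, 3 were higher, or 2 of 7 ligands and 1 of 13 receptors, where 10.7% of the 10509 tested genes with at least 1 FPKM were called higher and 12.9% lower (23.6% in all). The median log2 change of the 20 members was 0.19, beside -0.10 for all tested genes. In DP2 cells, 3 of 23 tested members were higher in the knockout (Tnf, Tnfrsf1a and Tnfrsf8) and 2 were lower (Cd40lg and Tnfrsf9), where 6.44% of 10674 tested genes were called higher and 4.32% lower (10.8% in all). Their median log2 change was 0.16, beside 0.10 for all tested genes. At an unadjusted p under 0.05 the authors' deposited tables held 5 members in DP1 and 11 in DP2.

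**Figure D2:**
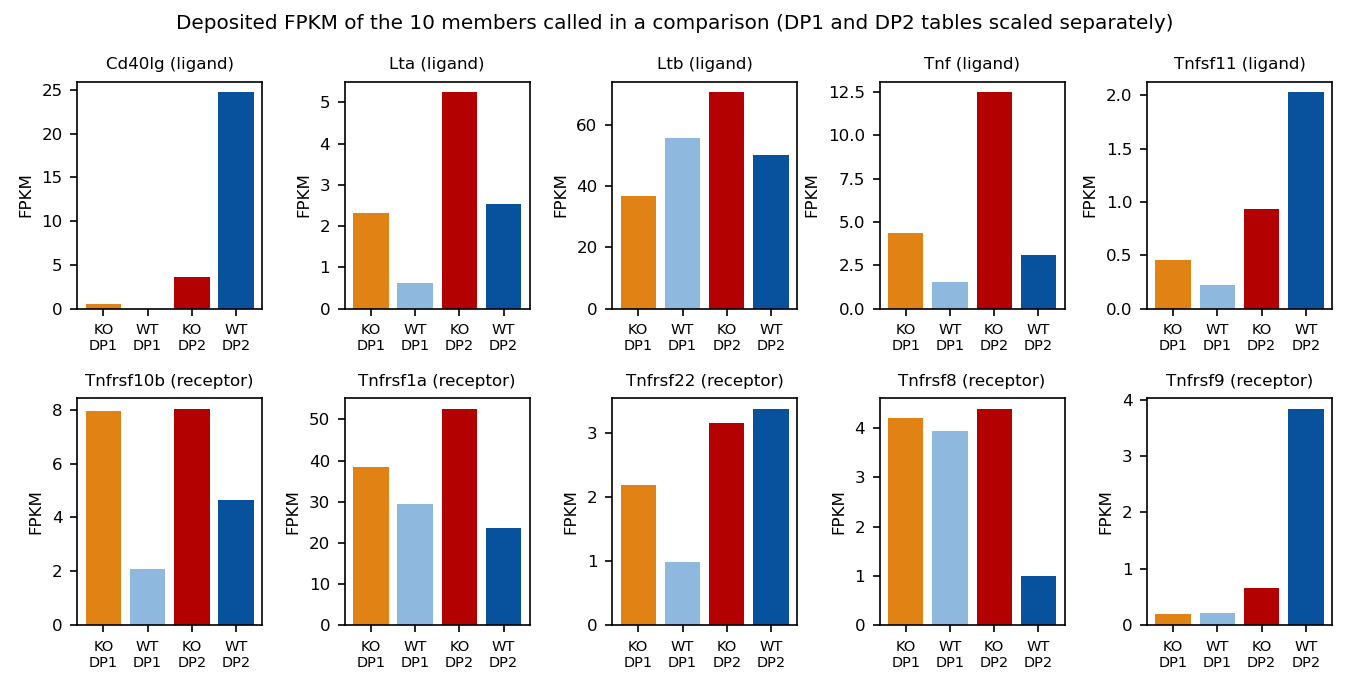
Deposited FPKM of the 10 members called in at least 1 of the 4 comparisons, as bars from 0, 1 value per group with no error bar (KO, Hdac3KO). Bars of DP1 and of DP2 come from separately scaled tables. Tnf is higher in Hdac3KO at both stages (4.36 against 1.55 FPKM and 12.5 against 3.11 FPKM), while Cd40lg and Tnfrsf9 have their highest bar in WT DP2.

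Tnf, which encodes the founding cytokine of the family, was the member called higher in the knockout at both stages. It stood at 4.36 FPKM in Hdac3KO DP1 against 1.55 FPKM in WT DP1, a 2.81-fold difference in the authors' deposited table (log2 change 1.49 ± 0.47, q = 0.0119). In DP2 it stood at 12.5 FPKM in Hdac3KO against 3.11 FPKM in WT, 4.01-fold in the authors' deposited table (2.004 ± 0.52, q = 0.00245). These calls held under centring on the median gene and with the trend on transcript length removed.

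Lta encodes lymphotoxin α, which is secreted as a trimer or joins the Ltb product at the cell surface. It was at 2.32 FPKM in Hdac3KO DP1 against 0.612 FPKM in WT DP1 in the authors' deposited table, 3.79-fold (1.92 ± 0.71, q = 0.0338), and was called. In that comparison Lta was counted among the tested members through its Hdac3KO value. In DP2 its values were 5.25 FPKM in Hdac3KO and 2.53 FPKM in WT in the authors' deposited table, 2.07-fold, which did not pass (1.05 ± 0.52, q = 0.198). Ltb did not pass in either comparison of genotypes. Its values were 36.9 FPKM in Hdac3KO DP1 and 55.6 FPKM in WT DP1 (-0.59 ± 0.26, q = 0.0795), and 70.7 FPKM in Hdac3KO DP2 and 50.3 FPKM in WT DP2 (0.49 ± 0.24, q = 0.198), in the authors' deposited tables. Tnf and Lta thus lay above WT in all 4 values of the knockout pairs, and Ltb lay below WT in DP1 and above it in DP2.

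The 3 genes are neighbours in the class III region of the mouse MHC on chromosome 17 (mm10). Ltb lies at 35194439 to 35196320 on the plus strand, Tnf at 35199381 to 35202007 and Lta at 35203165 to 35205351, both on the minus strand, with 3060 bases between Ltb and Tnf and 1157 between Tnf and Lta (GENCODE M21). Of the other protein-coding genes within 50000 bases on either side, Bag6, Prrc2a, Nfkbil1 and Ddx39b were tested in DP1, and Lst1 also in DP2. Aif1 and Atp6v1g2 had no test. None was called between genotypes, where 23.6% of all tested genes were called in DP1 and 10.8% in DP2. With so few tested genes, this does not show that the change was confined to Tnf and Lta. Nfkbil1, the next gene beyond Lta with a test, stood at 11.2 FPKM in both Hdac3KO DP1 and WT DP1 (q = 0.995), and at 13.6 FPKM in Hdac3KO DP2 against 7.38 FPKM in WT DP2 (q = 0.0788), in the authors' deposited tables. Ddx39b, an RNA helicase gene farther along, had log2 changes of -0.25 ± 0.25 and 0.08 ± 0.23 in DP1 and DP2. Lst1, on the Ltb side, was at 4.69 FPKM in Hdac3KO DP2 and 1.12 FPKM in WT DP2 in the authors' deposited table and did not pass (q = 0.382).

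The 250 bases before the start site are shown for these neighbours, since they lie within a few kilobases and differed in their changes, and for Tnfrsf8 and Tnfrsf9, which moved in opposite directions in the results that follow. The sequences are from RefSeq on GRCm38.p6 and run 5′ to 3′ along the gene. The table held 35 promoters of 31 of the 41 members. Capitals mark matches on either strand to the NF-kB motif, to TGGAAA, which is a core of NFAT sites, to TGANTCA for AP-1 sites, to GCGNGGGCG for Egr sites and to TATAAA for a TATA box. Overlapping matches share their capitals.
Tnf (chr17:35202008-35202257, minus strand): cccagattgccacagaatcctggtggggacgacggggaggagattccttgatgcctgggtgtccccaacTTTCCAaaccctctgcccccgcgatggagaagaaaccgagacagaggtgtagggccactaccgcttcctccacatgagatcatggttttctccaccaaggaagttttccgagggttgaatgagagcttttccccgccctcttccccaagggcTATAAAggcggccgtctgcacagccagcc
Lta (chr17:35205352-35205601, minus strand): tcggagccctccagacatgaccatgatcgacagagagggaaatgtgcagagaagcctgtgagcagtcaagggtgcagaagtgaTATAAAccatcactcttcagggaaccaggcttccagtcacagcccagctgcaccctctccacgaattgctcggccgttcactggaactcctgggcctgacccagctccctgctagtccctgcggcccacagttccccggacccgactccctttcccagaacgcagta
Ltb (chr17:35194257-35194506, plus strand): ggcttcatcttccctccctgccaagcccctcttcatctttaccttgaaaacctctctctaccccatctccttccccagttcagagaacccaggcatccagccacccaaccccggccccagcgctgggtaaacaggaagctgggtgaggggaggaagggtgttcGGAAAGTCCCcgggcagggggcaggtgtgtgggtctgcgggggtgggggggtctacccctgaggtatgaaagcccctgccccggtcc
Tnfrsf8 (chr4:145315165-145315414, minus strand): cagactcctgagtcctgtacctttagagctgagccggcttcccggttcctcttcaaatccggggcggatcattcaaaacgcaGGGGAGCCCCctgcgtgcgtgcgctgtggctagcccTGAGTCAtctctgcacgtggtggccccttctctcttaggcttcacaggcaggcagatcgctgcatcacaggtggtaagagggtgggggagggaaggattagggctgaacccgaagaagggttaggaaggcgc
Tnfrsf9, first start (chr4:150919905-150920154, plus strand): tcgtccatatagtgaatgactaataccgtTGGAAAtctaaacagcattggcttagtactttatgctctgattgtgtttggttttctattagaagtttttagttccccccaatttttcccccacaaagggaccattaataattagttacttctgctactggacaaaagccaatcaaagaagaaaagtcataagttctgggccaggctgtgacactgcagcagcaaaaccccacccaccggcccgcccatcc
Tnfrsf9, second start (chr4:150927749-150927998, plus strand): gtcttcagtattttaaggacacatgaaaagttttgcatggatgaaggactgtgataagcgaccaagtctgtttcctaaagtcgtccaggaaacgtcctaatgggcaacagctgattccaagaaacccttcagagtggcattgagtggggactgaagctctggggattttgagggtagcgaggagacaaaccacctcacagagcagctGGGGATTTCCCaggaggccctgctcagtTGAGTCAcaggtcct
Among 32851 mouse promoter windows of this length, 3.9% held the NF-kB motif, 18.6% TGGAAA, 6.75% TGANTCA, 4.7% GCGNGGGCG and 12.4% TATAAA. Over the 35 promoters of members these shares were 8.57%, 20%, 17.1%, 2.86% and 17.1% in that order, and their difference was not tested. Only 3 of the 31 members held the NF-kB motif, and all 3 are among the genes shown. Tnf held TATAAA at bases -29 to -24 from the start and 1 reverse match to TGGAAA. Lta held TATAAA farther out, at -167 to -162. The NF-kB motif was present before Ltb, before Tnfrsf8 and before the second start of Tnfrsf9, where 2 overlapping matches form 1 run of capitals. TGANTCA was present before Tnfrsf8 and before the second start of Tnfrsf9, and GCGNGGGCG in none of those shown. These are matches of letters and not measured binding.

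Cd40lg, Tnfrsf9 and Tnfsf11 were members whose transcripts appeared with the DP2 stage in WT. Cd40lg (mm10 chromosome X, 57212143 to 57224042, plus strand) encodes CD40 ligand, a helper signal of CD4 T cells that is induced by TCR signalling. It was at 24.01 FPKM in WT DP2 and was listed at 0 in WT DP1 in the authors' deposited table (q = 0.000835), so no fold is given. In the knockout it stood at 3.27 FPKM in DP2 against 0.465 FPKM in DP1, a pair for which the authors' deposited table holds no test. Between genotypes in DP2 it was 6.87-fold lower in Hdac3KO, at 3.60 FPKM against 24.7 FPKM in WT in the authors' deposited table (-2.78 ± 0.71, q = 0.00245). The genotype groups also differ in Xist, and Cd40lg is X-linked, so for this gene too sex and genotype cannot be told apart.

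Tnfrsf9 encodes 4-1BB, a TRAF-binding costimulatory receptor of activated T cells. In WT it was at 3.69 FPKM in DP2 against 0.242 FPKM in DP1, 15.3-fold in the authors' deposited table (3.93 ± 1.38, q = 0.026). The knockout had 0.600 FPKM in DP2 and 0.196 FPKM in DP1, both under 1 FPKM. Between genotypes in DP2 it was at 0.660 FPKM in Hdac3KO against 3.84 FPKM in WT, 5.82-fold lower in the authors' deposited table (-2.54 ± 0.81, q = 0.0217). In DP1 it was at 0.195 FPKM in Hdac3KO and 0.215 FPKM in WT.

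Tnfsf11 encodes RANK ligand, which drives the growth of medullary thymic epithelium. It was at 1.92 FPKM in WT DP2 against 0.251 FPKM in WT DP1, 7.64-fold in the authors' deposited table (2.93 ± 1.005, q = 0.0224). Hdac3KO DP2 had 0.937 FPKM against 2.03 FPKM in WT DP2 in the authors' deposited table, which did not pass (-1.11 ± 0.62, q = 0.269). Its receptor gene Tnfrsf11a and the decoy receptor gene Tnfrsf11b stayed under 1 FPKM in all groups. Tnfsf8, the CD30 ligand gene, went untested with 0.463 FPKM in Hdac3KO DP2 and 1.53 FPKM in WT DP2.
Each of these genes is counted among the members tested through its WT DP2 value, and the stage comparison in WT and the genotype comparison in DP2 share the WT DP2 libraries.

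Markers of cells beyond the double-positive stage moved with these genes in part. Of 8 mature single-positive markers, Il7r was at 0.653 FPKM in Hdac3KO DP2 against 10.2 FPKM in WT DP2 in the authors' deposited table (q = 0.0159). Ccr7, at 10.5 against 3.80 FPKM, and Itgb7, at 13.4 against 6.69 FPKM, were higher in Hdac3KO DP2, and the list summed to 621 FPKM in Hdac3KO DP2 and 485 FPKM in WT DP2. Among 6 regulatory T cell markers, Ikzf2 was at 24.002 FPKM in Hdac3KO DP2 against 94.8 FPKM in WT DP2, Il2ra at 26.3 against 4.41 FPKM, and the list summed to 52.7 and 104 FPKM. The 11 myeloid and dendritic markers summed to 27.5 FPKM in Hdac3KO DP2 and 24.4 FPKM in WT DP2, sums that hide changes in opposite directions. Itgam, at 15.7 FPKM in Hdac3KO DP2 against 1.6003 FPKM in WT DP2, was called higher and made up most of the Hdac3KO sum. H2-Ab1, at 1.15 against 5.41 FPKM, was called lower. Cd74, at 2.15 against 6.68 FPKM, and Cd68, at 3.43 FPKM in both, did not pass. Of the untested genes, Lyz2, Csf1r, H2-Aa and H2-Eb1 lay below WT, and Itgax, Emr1 and Fcer1g above it. The 10 double-positive markers summed to 8244 FPKM in Hdac3KO DP2 and 3739 FPKM in WT DP2, with 5 called higher in the knockout. Rag1, at 3006 against 671 FPKM, contributed most to the difference in these sums and did not pass (q = 0.328). The 10 double-negative stage markers summed to 216 FPKM in Hdac3KO DP2 and 349 FPKM in WT DP2, with Il2ra higher and Hhex, Cd44 and Il7r lower. In DP1 the mature single-positive list summed to 380 FPKM in Hdac3KO and 291 FPKM in WT, with Ccr7 and Itgb7 higher. The 6 gamma-delta T and NK cell markers summed to 38.5 FPKM in Hdac3KO DP1 and 66.5 FPKM in WT DP1. Nearly all of that was Gzma, which was called lower, at 37.1 against 66.0 FPKM. The others had no test and stayed at 0.588 FPKM or less. Klrb1c, Nkg7 and Ncr1 lay above WT, Sox13 lay below it and Klrd1 was at 0 in both. Also called in DP1 were Itgam, at 9.58 FPKM in Hdac3KO against 2.40 FPKM in WT, Il2ra, at 19.6 against 3.49 FPKM, Ikzf2, at 8.40 against 17.5 FPKM, and Hhex, at 8.53 against 47.8 FPKM, in the authors' deposited table. The part of these cells in the results was not tested.

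Tnfrsf8 encodes CD30, a TRAF-binding receptor of activated lymphocytes, and followed the opposite course. In WT it fell to 0.971 FPKM in DP2, against 4.49 FPKM in DP1, 4.62-fold lower in the authors' deposited table (-2.21 ± 0.67, q = 0.00887). It was counted among the tested members there through its DP1 value. In the knockout it was at 3.98 FPKM in DP2 and 4.19 FPKM in DP1 (-0.07 ± 0.37, q = 0.969) in the authors' deposited table. Between genotypes in DP2 it was higher in Hdac3KO, at 4.40 FPKM against 1.01 FPKM in WT, 4.37-fold in the authors' deposited table (2.13 ± 0.74, q = 0.0392). That call ended after centring on the median gene (2.01, q = 0.0574) and with the length trend removed (2.02, q = 0.0549). Its neighbour Tnfrsf1b, the gene of TNFR2, lies 20266 bases away on chromosome 4 and did not pass in any comparison, with 3.15 and 3.02 FPKM in Hdac3KO DP1 and WT DP1 and 5.82 and 5.19 FPKM in Hdac3KO DP2 and WT DP2.

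**Figure D3:**
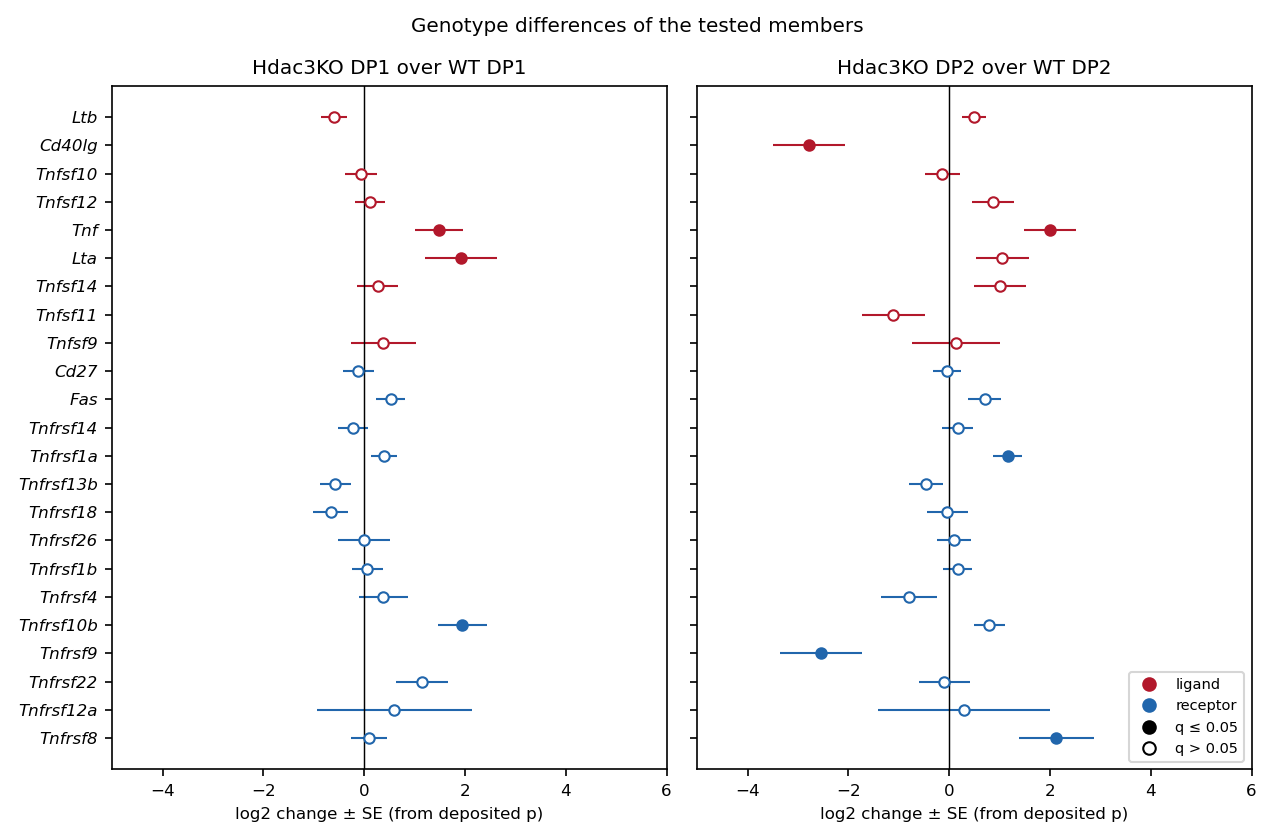
Log2 change of Hdac3KO over WT for every member tested in DP1 (left) or DP2 (right), with bars for the SE derived from the deposited p, ligands in red and receptors in blue. Filled points have a deposited q of 0.05 or less, and rows without a point had no test. Tnf, Lta and Tnfrsf10b are filled on the right side of 0 in DP1, and in DP2 Tnf, Tnfrsf1a and Tnfrsf8 are filled above 0 and Cd40lg and Tnfrsf9 below it.

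Among the receptors with a death domain, Tnfrsf1a and Tnfrsf10b were called and Fas was not. Tnfrsf1a encodes TNFR1, the main receptor for soluble TNF. It was at 52.6 FPKM in Hdac3KO DP2 against 23.6 FPKM in WT DP2, 2.23-fold in the authors' deposited table (1.16 ± 0.29, q = 0.00134). Its DP1 values, 38.5 FPKM in Hdac3KO and 29.3 FPKM in WT, did not pass (0.39 ± 0.25, q = 0.255), except with the length trend removed (0.74, q = 0.0276). The ligand Tnf and this receptor were therefore both higher in knockout DP2 cells.

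Tnfrsf10b encodes the mouse death receptor for TRAIL. It was at 7.96 FPKM in Hdac3KO DP1 against 2.07 FPKM in WT DP1, 3.85-fold in the authors' deposited table (1.95 ± 0.48, q = 0.000879). In DP2 it was at 8.04 FPKM in Hdac3KO and 4.63 FPKM in WT in the authors' deposited table and did not pass (0.80 ± 0.31, q = 0.072). Between stages in Hdac3KO it was at 7.29 FPKM in DP2 and 7.95 FPKM in DP1 (q = 0.9) in the authors' deposited table. Tnfsf10, the gene of TRAIL itself, stood at 4.02 FPKM in Hdac3KO DP1 and 4.21 FPKM in WT DP1, and at 5.56 FPKM in Hdac3KO DP2 and 6.12 FPKM in WT DP2, and did not pass in either.

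Fas, a p53 target and the receptor for Fas ligand, was the second most abundant receptor gene of the family. Its values of 96.3 FPKM in Hdac3KO DP1 and 67.0 FPKM in WT DP1 (0.52 ± 0.29, q = 0.171), and of 115 FPKM in Hdac3KO DP2 and 71.0 FPKM in WT DP2 (0.70 ± 0.32, q = 0.151), missed the threshold in the authors' deposited tables. With the length trend removed it was called higher in DP1. Fasl, its ligand gene, stayed under 1 FPKM in all groups. Tnfrsf25 and Tnfrsf21, the genes of the death receptors DR3 and DR6, had no test between genotypes, the first staying under 1 FPKM and the second at 0.852 FPKM in Hdac3KO DP2 and 1.30 FPKM in WT DP2.

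TRAF-binding receptors other than CD30 and 4-1BB did not pass between genotypes. Cd27 was at 278 FPKM in Hdac3KO DP1 and 301 FPKM in WT DP1 (q = 0.824), and at 465 FPKM in Hdac3KO DP2 and 480 FPKM in WT DP2 (q = 0.949), in the authors' deposited tables. Its ligand gene Cd70 stayed under 1 FPKM. Tnfrsf14, which encodes the LIGHT and BTLA receptor HVEM, was at 16.1 and 18.8 FPKM in Hdac3KO DP1 and WT DP1 and at 29.3 and 26.1 FPKM in Hdac3KO DP2 and WT DP2. Tnfrsf18 (GITR) and Tnfrsf4 (OX40), adjacent genes on chromosome 4 that are known from regulatory and activated T cells, had log2 changes of -0.67 ± 0.35 and 0.38 ± 0.49 in DP1 and of -0.04 ± 0.41 and -0.80 ± 0.55 in DP2. Tnfrsf13b, the gene of the BAFF and APRIL receptor TACI known from B cells, was at 15.01 and 22.3 FPKM in Hdac3KO DP1 and WT DP1 and at 16.6 and 22.9 FPKM in Hdac3KO DP2 and WT DP2 and did not pass in either. The 6 B cell markers summed to 9.18 FPKM in Hdac3KO DP1 and 9.36 FPKM in WT DP1, and to 8.36 FPKM in Hdac3KO DP2 and 10.4 FPKM in WT DP2, and their part in the Tnfrsf13b values was not tested. Most of each sum was Cd79b, at 6.03, 7.79, 5.25 and 5.89 FPKM in that order. Ms4a1 was at 0.0608 FPKM in Hdac3KO DP2 and 2.01 FPKM in WT DP2 without a test, Cd22 lay between 0.535 and 1.53 FPKM, and Pax5 was at 0.393 FPKM or less. The B cell receptor genes Tnfrsf17 and Cd40 stayed under 1 FPKM, and Tnfrsf13c reached 1.21 FPKM in Hdac3KO DP2 without a test.

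Tnfrsf22, Tnfrsf23 and Tnfrsf26 form a cluster on chromosome 7, and the products of the first and second are known as TRAIL decoy receptors of the mouse. Tnfrsf22 rose in WT to 3.29 FPKM in DP2 against 1.11 FPKM in DP1 in the authors' deposited table, 2.96-fold (1.57 ± 0.60, q = 0.0418), a call that ended when p was adjusted over all 4 tables (q = 0.0543). In the knockout it was at 2.87 FPKM in DP2 and 2.19 FPKM in DP1 (q = 0.778), and between genotypes in DP1 it was at 2.19 FPKM in Hdac3KO and 0.985 FPKM in WT (1.15 ± 0.52, q = 0.0895), in the authors' deposited tables. Of its 4147 words of 50 bases in GENCODE transcripts, 719, or 17.3%, also occur in Tnfrsf23, so how reads were divided between these genes is uncertain. None occurred in Tnfrsf26, which was at 5.26 and 5.29 FPKM in Hdac3KO DP1 and WT DP1 and at 10.4 and 9.73 FPKM in Hdac3KO DP2 and WT DP2.

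The remaining tested ligands did not pass between genotypes. Tnfsf14, which encodes LIGHT, was at 4.74 FPKM in Hdac3KO DP2 and 2.35 FPKM in WT DP2 (1.01 ± 0.51, q = 0.208) in the authors' deposited table. Tnfsf12, the gene of TWEAK, was at 6.63 FPKM in Hdac3KO DP2 and 3.65 FPKM in WT DP2 (0.86 ± 0.42, q = 0.186) in the authors' deposited table. The files give Tnfsf12 and Tnfsf13 the same locus on chromosome 11, so reads of these neighbours may not be fully separated. Tnfsf9, the 4-1BB ligand gene, had log2 changes of 0.38 ± 0.64 and 0.13 ± 0.87 in DP1 and DP2. Tnfrsf12a, the TWEAK receptor gene, was at 2.01 and 1.33 FPKM in Hdac3KO DP1 and WT DP1 with a log2 change of 0.60 ± 1.54.

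Between the stages, Ltb and Tnf were called in the knockout, and Cd40lg, Lta, Tnfsf11, Tnfrsf9, Tnfrsf22 and Tnfrsf8 in WT. In Hdac3KO, 2 of 20 tested members were higher in DP2 and 0 lower, where 1.78% of 10231 tested genes were called higher and 4.65% lower (6.43% in all), and 8 members had an unadjusted p under 0.05. In WT, 5 of 23 were higher in DP2 and 1 lower, where 5.56% of 10836 tested genes were called higher and 16.8% lower (22.3% in all). The median log2 change was 0.32 over the members in Hdac3KO, beside 0.01 for all tested genes, and 0.26 in WT, beside -0.27 for all tested genes. A call in one genotype and not in the other is no test of their difference, which is given below for the members that allow it. Between stages in WT, double-positive markers were lower in DP2 in 6 of 10 cases, and the 8 mature single-positive markers summed to 471 FPKM in DP2 and 328 FPKM in DP1. The Y-linked gene Ddx3y was at 154 FPKM in WT DP2 against 64.5 FPKM in WT DP1 in the authors' deposited table (q = 0.000835). Between stages in Hdac3KO, double-positive markers were lower in DP2 in 1 of 10 cases, and the mature single-positive list summed to 564 FPKM in DP2 and 382 FPKM in DP1, with Itgb7 higher. Ikzf2 was higher in Hdac3KO DP2, at 21.8 FPKM against 8.47 FPKM in Hdac3KO DP1, and Gzma was lower, at 14.8 FPKM against 37.3 FPKM, in the authors' deposited table. Xist was also lower in Hdac3KO DP2, at 127 FPKM against 209 FPKM in Hdac3KO DP1 in the authors' deposited table (q = 0.0337). The part of these markers in the stage values was not tested.

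Tnf rose to 11.3 FPKM in Hdac3KO DP2, against 4.32 FPKM in Hdac3KO DP1, 2.61-fold in the authors' deposited table (1.39 ± 0.37, q = 0.00406). In WT it was at 2.96 FPKM in DP2 and 1.78 FPKM in DP1 in the authors' deposited table and did not pass (0.74 ± 0.51, q = 0.304). Ltb rose to 64.0 FPKM in Hdac3KO DP2, against 36.6 FPKM in Hdac3KO DP1, 1.75-fold in the authors' deposited table (0.81 ± 0.22, q = 0.00747), and in WT was at 47.6 FPKM in DP2 and 63.7 FPKM in DP1 (-0.42 ± 0.28, q = 0.293). Lta rose in WT to 2.40 FPKM in DP2, against 0.697 FPKM in DP1, 3.44-fold in the authors' deposited table (1.78 ± 0.70, q = 0.0476), a call that ended when p was adjusted over all 4 tables (q = 0.0621). It was counted among the tested members there through its DP2 value. The knockout had 4.75 FPKM of Lta in DP2 and 2.31 FPKM in DP1 (1.04 ± 0.43, q = 0.159) in the authors' deposited table. Tnfrsf10b was at 4.37 FPKM in WT DP2 and 2.36 FPKM in WT DP1 and missed the threshold in the authors' deposited table (0.89 ± 0.37, q = 0.0633), but was called after centring on the median gene (1.22, q = 0.0118).

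**Figure D4:**
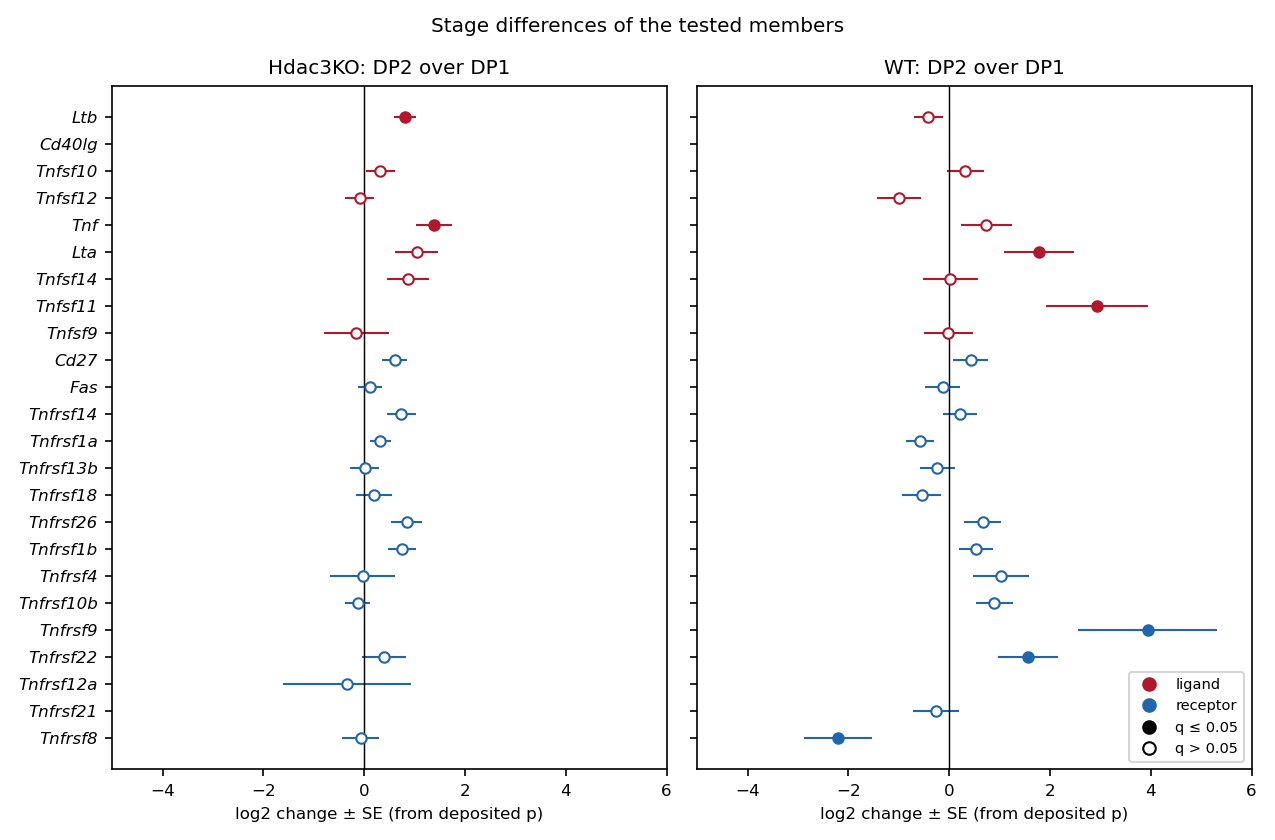
Log2 change of DP2 over DP1 for every member tested in Hdac3KO (left) or WT (right), drawn as in the plot of genotype differences. Cd40lg has no point in WT because it is listed at 0 in DP1. Ltb and Tnf are filled in Hdac3KO, and Lta, Tnfsf11, Tnfrsf9 and Tnfrsf22 are filled above 0 and Tnfrsf8 below 0 in WT.

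Whether a genotype difference itself differed between DP2 and DP1 was tested for the 20 members with a test in both genotype tables. None passed at q of 0.05 by the normal test of the difference of log2 changes, where 2.08% of 10144 genes did, and 4 had an unadjusted p under 0.05. The difference, DP2 effect minus DP1 effect, was 1.08 ± 0.36 for Ltb (q = 0.0726), 2.04 ± 0.82 for Tnfrsf8 (q = 0.151), 0.77 ± 0.38 for Tnfrsf1a (q = 0.251) and -1.15 ± 0.57 for Tnfrsf10b (q = 0.25). For Tnfrsf1a and Tnfrsf10b the SE is an upper bound, which makes a pass harder. Tnfrsf1a in DP2 and Tnfrsf10b in DP1 had the smallest Cuffdiff p deposited, 5e-05. From the stage tables instead, made from these libraries too, Ltb passed (1.23 ± 0.36, q = 0.0399) as 1 of 19 members, where 3.13% of 9969 genes did. Over the members, the trend on transcript length ran from -0.71 to 0.15 between genotypes in DP1 and from -0.93 to -0.12 between stages in WT. It ran from 0.08 to 0.13 between genotypes in DP2 and from -0.03 to 0.04 between stages in Hdac3KO. The differences given here were taken without removing this trend, and its part in them, that of Ltb included, was not tested. By the same normal test, Tnf had a difference of 0.52 ± 0.70 from the genotype tables (q = 0.737) and of 0.65 ± 0.63 from the stage tables (q = 0.573). Cd40lg and Tnfrsf9 could not be tested in this way, since neither had a test in DP1.

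Genes that carry the receptors' signals were called in both directions, in lists whose counts are to be read beside the 23.6% of all tested genes called in DP1 (10.7% higher, 12.9% lower) and the 10.8% called in DP2 (6.44% higher, 4.32% lower). Among 13 tested genes of TRAF proteins and their partners, 2 were higher and 1 lower in Hdac3KO DP1 (median log2 change -0.10), and 3 were higher and 1 lower in Hdac3KO DP2 (median 0.44). The DP1 count of 3 of 13 is close to the share of all tested genes. Traf1, which binds TNFR2, CD30 and 4-1BB and is itself an NF-kB target, was at 19.9 FPKM in Hdac3KO DP1 against 8.33 FPKM in WT DP1 (1.26 ± 0.31, q = 0.000879), and at 30.1 FPKM in Hdac3KO DP2 against 8.57 FPKM in WT DP2 (1.81 ± 0.45, q = 0.00134), in the authors' deposited tables. Traf4 was at 48.4 FPKM in Hdac3KO DP1 against 23.0 FPKM in WT DP1, and at 86.0 FPKM in Hdac3KO DP2 against 28.5 FPKM in WT DP2, called in both of the authors' deposited tables. Traf2, the adaptor shared by most TRAF-binding receptors, was called in DP2, at 33.4 FPKM in Hdac3KO against 17.3 FPKM in WT (q = 0.00134) in the authors' deposited table. Tank, a TRAF-binding regulator, was lower in Hdac3KO DP2, at 29.1 FPKM against 63.2 FPKM in WT DP2 in the authors' deposited table, and Traip was lower in Hdac3KO DP1.

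In the list of the TNF receptor signalling complex, 2 of 19 tested genes were higher and 1 lower in Hdac3KO DP1 (median -0.06), and 1 of 20 was higher and 1 lower in Hdac3KO DP2 (median 0.20). Neither count exceeds the share of all tested genes, 23.6% in DP1 and 10.8% in DP2. Xiap, an inhibitor of caspases, and Tab2, a partner of the kinase TAK1, were the higher genes in DP1, with log2 changes of 0.88 ± 0.25 and 0.69 ± 0.25. Tnip1, which restrains NF-kB together with A20, was at 58.8 FPKM in Hdac3KO DP2 against 26.7 FPKM in WT DP2 in the authors' deposited table (1.14 ± 0.28, q = 0.00134). Map3k5, the kinase ASK1, was lower in the knockout at both stages (-0.77 ± 0.30 and -1.15 ± 0.36).

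Of 10 tested genes of death domain signalling and caspases, 3 were called lower and 1 higher in Hdac3KO DP1, where 12.9% of all tested genes were called lower and 10.7% higher, with a median of -0.27. Ripk3, the kinase of necroptosis, was at 9.34 FPKM in Hdac3KO DP1 against 18.9 FPKM in WT DP1 in the authors' deposited table. Bid and Faim were the other lower genes. Of the 3, Faim had the largest change, at 7.22 FPKM in Hdac3KO DP1 against 17.8 FPKM in WT DP1 in the authors' deposited table. Cflar, which encodes the caspase-8 inhibitor FLIP, was the higher one, at 90.6 FPKM in Hdac3KO DP1 against 44.3 FPKM in WT DP1 in the authors' deposited table (1.03 ± 0.35, q = 0.0195). In Hdac3KO DP2, where 10.8% of all tested genes were called, none of the 10 was called by Cuffdiff in the authors' deposited table, 4 had an unadjusted p under 0.05, and the median was -0.01.

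Of 8 tested genes of the canonical NF-kB arm, Rel was called higher in Hdac3KO DP1, at 11.99 FPKM against 5.23 FPKM in WT DP1 in the authors' deposited table (1.20 ± 0.33, q = 0.00303), and none was called in DP2, where 0 had an unadjusted p under 0.05. None of the tested genes of the noncanonical arm, 3 in DP1 and 4 in DP2, was called between genotypes by Cuffdiff in the authors' deposited tables, and 0 had an unadjusted p under 0.05. Over all tested genes, 23.6% were called in DP1 and 10.8% in DP2. Between stages in WT, Relb and Nfkb2 of that arm were higher in DP2, with log2 changes of 1.98 ± 0.52 and 0.92 ± 0.33. Relb also rose in the knockout, to 3.62 FPKM in DP2 against 0.2996 FPKM in DP1, in the authors' deposited table (3.59 ± 1.08, q = 0.0173). In the signalling complex list, 1 of 20 tested genes was higher and 1 lower in DP2 in each genotype. In the knockout these were Birc3, the NF-kB target that encodes cIAP2 (0.72 ± 0.23), and Xiap (-0.62 ± 0.21). In WT they were Tnip2, a binder of A20 (2.13 ± 0.53), and Tnip1 (-0.78 ± 0.28). Traf4 was called higher in knockout DP2. Rel was called higher in WT DP2, and Traf2, Traip, Bid and Daxx lower. Over all tested genes, 6.43% were called between stages in Hdac3KO and 22.3% in WT. Outside the symbol rule, Edaradd, the adaptor of the ectodysplasin receptor, was higher in the knockout, at 15.7 FPKM in Hdac3KO DP1 against 3.88 FPKM in WT DP1 and at 21.0 FPKM in Hdac3KO DP2 against 9.53 FPKM in WT DP2, in the authors' deposited tables. The genes of its ligand and receptors (Eda, Edar and Eda2r) stayed at 0.3203 FPKM or less in DP2.

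**Figure D5:**
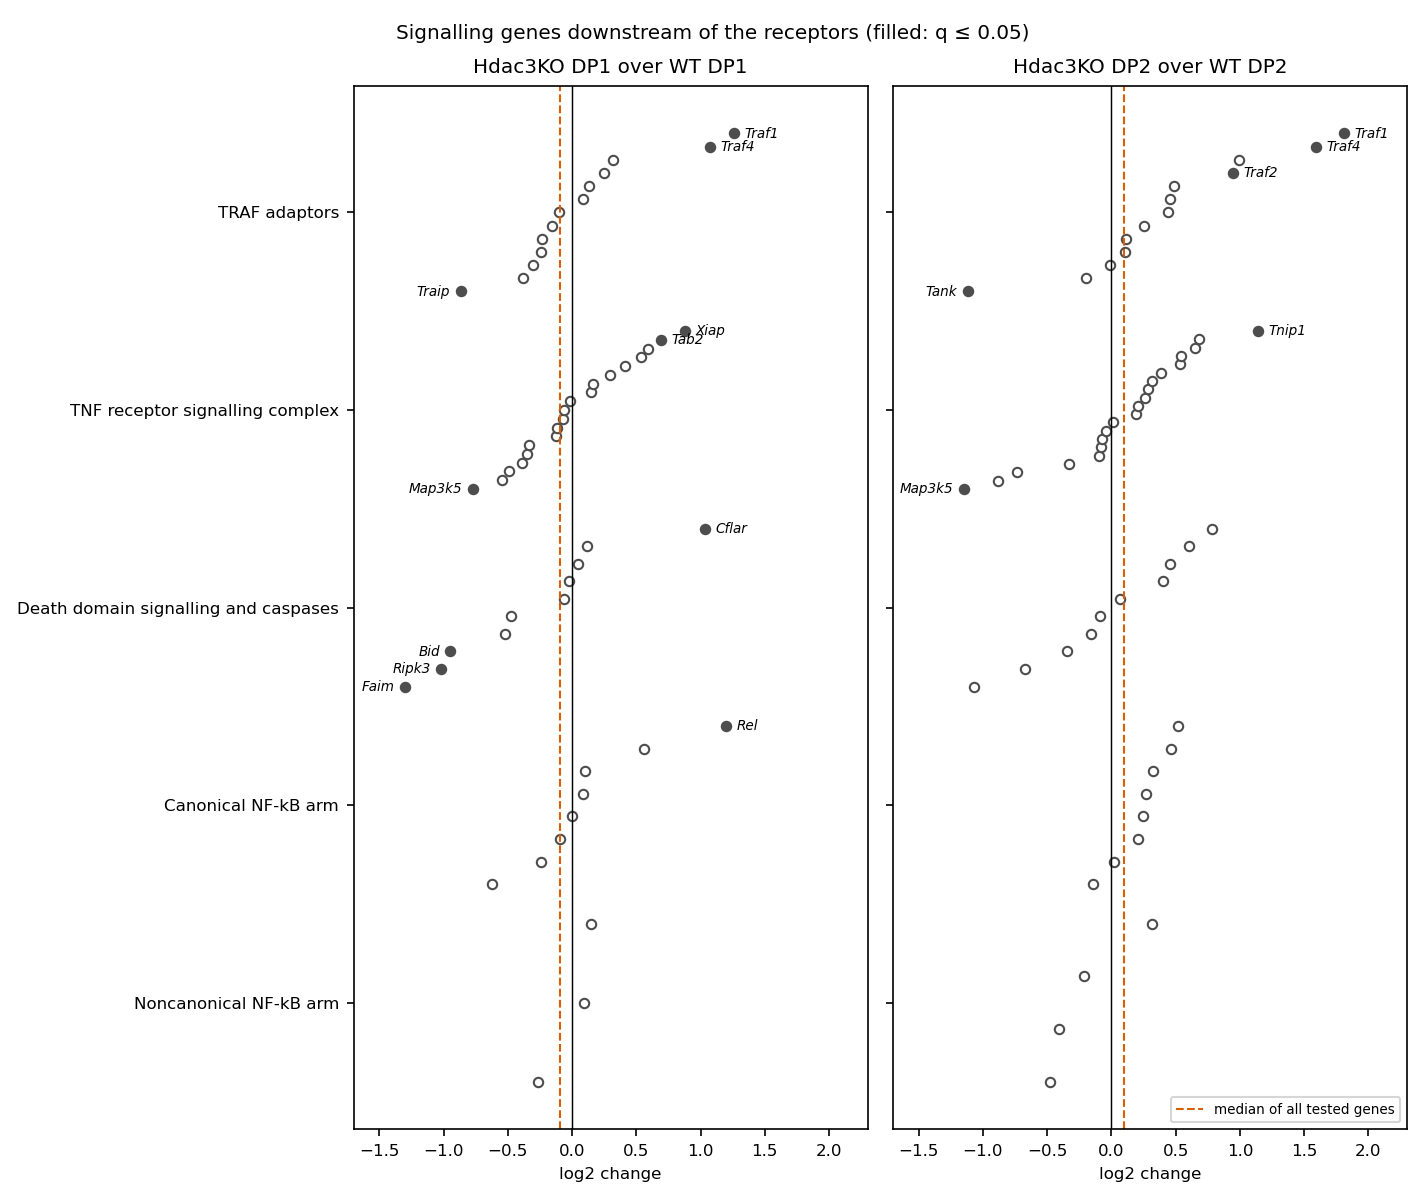
Log2 change of Hdac3KO over WT for tested genes of 5 downstream lists in DP1 (left) and DP2 (right), spread vertically within a list for legibility, with called genes filled and named. The dashed line is the median of all tested genes. Traf1 and Traf4 are filled above 0 at both stages, and no gene of death domain signalling is filled in DP2.

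By position, 22 of the 41 members lie in 9 clusters with gaps of at most 200000 bases between neighbours. Within clusters the calls were not shared in the same direction throughout. Tnf and Lta were both higher in Hdac3KO DP1 while Ltb was not called. On chromosome 6, Tnfrsf1a was called in DP2, while Cd27 in the same cluster was not and Ltbr, the lymphotoxin β receptor gene, stayed under 1 FPKM. On chromosome 4, Tnfrsf8 was called and Tnfrsf1b was not. The Tnfsf4 and Tnfsf18 pair on chromosome 1 and Tnfsf15 on chromosome 4, genes known from antigen-presenting or other non-T cells, stayed under 1 FPKM in all groups.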

How the data were processed

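Per the labels' protocols, Trizol RNA of 8 samples (4 groups of 2) went through ribosomal RNA depletion into stranded SMARTer libraries. Per the submitters' processing notes, the authors used Trimmomatic 0.32, TopHat2 2.0.11, Cuffdiff 2.1.1 and mm10; settings and annotation are not given in the sources used here. The authors deposited 4 Cuffdiff tables, each with FPKM scaled between 2 groups, a test statistic (score, not used further), a p-value and a q-value adjusted within the table. One group thus has different FPKM in 2 tables, with median ratios over members of 0.906 to 1.14. At 5e-05, the smallest deposited p-value, the SE is an upper bound. The deposited p-values are those of the Cuffdiff model, whose settings are unknown here, and extend only to these pooled samples.

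Log2 changes were computed from the deposited FPKM. SE is their size over the normal quantile of the deposited p. Differences between comparisons used a normal two-sided p with Benjamini-Hochberg adjustment over all genes. The procedure was run on simulated data drawn with these SE taken as true. That run cannot show whether the SE themselves are right. Transcript lengths and positions are from GENCODE M21, whose gene spans overlap the files' mm10 loci for 41 of 41 members. The length trend was fitted by lowess (fraction 0.3) to genes that reached 10 FPKM in each group, and 90.2% or more of tested genes had a length. Members called in any table were named with values, as were uncalled ones with at least 5 FPKM. Most called list genes were named, some of them without values. Other members given with values (Tnfsf8, Tnfsf9, Tnfsf14, Tnfrsf12a, Tnfrsf13c and Tnfrsf21), neighbouring genes and markers were chosen after their values were seen. The members and lists were chosen with earlier results of these data known. Some genes of the lists are not reported here and were left out of the lists' counts. Python 3.11.15, pandas 2.3.3, scipy 1.17.1 and statsmodels 0.14.6 were used. Alternatives are given in the closing section.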

Additional observations from a re-analysis of the deposited data

How the results depend on the processing

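Members called higher in Hdac3KO DP1 numbered 3, and 1 at q of 0.01, 1 at a minimum of 5 FPKM and 5 with the length trend removed, where Fas and Tnfrsf1a joined. None was called lower, and 1 was at q of 0.10 (Ltb). In Hdac3KO DP2 the 2 lower members became 1 at q of 0.01 and 1 at a minimum of 5 FPKM, and the 3 higher became 2 after centring and with the length trend removed. Between stages in Hdac3KO the 2 higher members became 4 at q of 0.10 and 1 at a log2 change of at least 1. Between stages in WT the 5 higher members became 1 at q of 0.01, 3 with adjustment over all 4 tables, 1 at a minimum of 5 FPKM and 8 with the length trend removed. The 1 lower member became 2 at q of 0.10 and 0 at a minimum of 5 FPKM. Cd40lg has no log2 change against a value of 0 and is missing from the centred and length-corrected stage counts. The 0 members whose genotype effect differed between stages became 1 from the stage tables and 1 at q of 0.10, Ltb in both. Apart from counts made stricter or looser by construction, the cause was not tested. No log2 change of a called member reversed under centring, length correction, log2(FPKM + 1) or adjustment over all 4 tables. No paired analysis was possible because each group has 1 deposited value, which also precluded leaving out replicates.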
